A study of Mus musculus with 8 samples.

Results

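Primary cultures of mouse cerebellum that received T3 (triiodothyronine, the active thyroid hormone) for 48 h were compared with untreated cultures kept for the same time. The comparison rests on 2 of the 8 arrays of the series, chosen by their titles: 1 array of the culture with 0.1 µM T3 for 48 h and 1 array of the untreated culture at 48 h. The other 6 arrays hold the T3 and untreated cultures at 6, 16 and 24 h, again 1 array for each. All cultures were made from pooled cerebella of wild-type pups, whose age is given as P4 to P7 in the sample labels and as P1 to P4 in the methods. The dissociated cells were kept for 48 h in serum-free medium before T3 was added, and the untreated cultures had the same change of medium. According to the methods, the treated and the untreated culture of a time point came from the same batch of cells. The question was which genes respond to the hormone in cultured cerebellar neurons. With 1 array a side there is no replicate, so the fold changes at 48 h are given without a test.

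T3 enters the nucleus and binds receptors encoded by Thra and Thrb, which sit on DNA together with a retinoid X receptor. Without hormone these receptors recruit corepressors and with hormone they recruit coactivators, so that many target genes are switched from repression to activation. In the postnatal cerebellum the hormone is needed for the migration and differentiation of granule neurons, for the growth of Purkinje cell dendrites and for the maturation of Bergmann glia.

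The labels call the cultures neurons, and the markers of the 48 h arrays show a mixture in which neuronal signals were low. Tubb3, the neuronal beta tubulin, had a signal of 45.0 with T3 and 49.3 in the untreated culture, against 114 to 1020 on the other 6 arrays (range). All 5 neuronal markers (Tubb3, Dcx, Stmn2, Snap25 and Rbfox3) were lower on both 48 h arrays than on any other array. Gabra6 and Cbln3, markers of differentiated granule neurons, had signals of 7.7 and 7.4 with T3 and of 4.8 and 7.2 in the untreated culture, which is close to background. The other 2 markers of these neurons were brighter, Grin2c with 35.3 and 20.5 and Cbln1 with 44.9 and 65.7. Of the astrocyte and Bergmann glia markers, Gfap (19.0 with T3, 19.5 untreated) and Aqp4 (39.1 on both arrays) stayed below 50, while Slc1a3 (111 and 114), Aldh1l1 (94.0 and 72.0) and Gdf10 (545 and 198) exceeded it. The red blood cell marker Alas2 was near background (1.6 and 1.4). Of the choroid plexus markers, Ttr (3839 with T3, 4132 untreated) and Folr1 (1240 and 988) were bright, and Kl was dim (13.7 and 15.7). A signal of 50 on at least 1 of the 2 arrays was reached by 0 of 3 GABAergic, 1 of 3 Purkinje and 3 of 4 oligodendrocyte markers. All 5 microglial markers (Csf1r, Cx3cr1, Aif1, Tyrobp and C1qa) and all 4 markers of meningeal fibroblasts (Col1a1, Col1a2, Lum and Dcn) were higher on both 48 h arrays than on any other array. Within the 48 h pair, the summed signal of the neuronal markers was 864 with T3 and 476 untreated. The sums were 1212 and 924 for the microglial markers and 7037.5 and 7376 for the fibroblast markers. For the astrocyte markers they were 809 and 442, of which Gdf10 alone gave 545 and 198. In bulk RNA, fewer cells of a type and less of its RNA per cell cannot be told apart, and the part of such shifts in the results below was not tested.

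On these whole-genome arrays a gene is read by 1 or more probe-sets, sets of short probes whose brightness the authors combined into 1 signal intensity. After removal of the control probe-sets, a probe-set was kept when its signal reached 50 on at least 1 of the 2 arrays, which left 15494 of 45037 (34.4%). The log2 fold change of T3 over untreated had a median of -0.01 and a standard deviation (SD) of 0.29 over the kept probe-sets, and 90% of the values, as the span of the 5th to the 95th percentile, lay between -0.43 and 0.49. Signals over 2-fold higher with T3 were found for 82 probe-sets (0.529% of those kept) and over 2-fold lower for 46 (0.297%). By the brightest probe-set of each of 9283 kept genes, 50 genes (0.539%) exceeded 2-fold in favour of T3 and 30 (0.323%) in favour of the untreated culture. The shares of the 48 h pair were close to those of the 6 h pair (0.342% higher, 0.265% lower) and the 16 h pair (0.398% and 0.417%), whereas 3.85% and 7.26% of the probe-sets of the 24 h pair were past 2-fold. Probe-sets of the same gene, which read the same RNA and are a technical repeat, differed by an SD of 0.22 in log2 fold change over 3368 genes. In 14 of these genes (0.416%) all probe-sets were over 1.6-fold higher with T3, and in 12 (0.356%) all were over 1.6-fold lower.

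Whether 48 h differed from the other time points was tested with limma on the 4 differences between paired arrays, which assumes that the 48 h pair varies like the others. No probe-set passed (0 of 15494 at an adjusted p of 0.05, 0% called, smallest adjusted p 0.999), and 330 had an unadjusted p under 0.05. Without the 24 h pair 0 passed as well, with 1059 at an unadjusted p under 0.05 and a smallest adjusted p of 0.444. With a single 48 h pair the test has little power, so that a missing call does not show the time points to be alike. No gene is called particular to 48 h, and the values of the other pairs are given beside those at 48 h for several lists and genes. Across the kept probe-sets, which are not independent, the log2 fold changes at 48 h correlated at 0.02, 0.09 and -0.00 with those at 6, 16 and 24 h. The value of a probe-set at 48 h thus said little about its value in another pair.

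**Figure D1:**
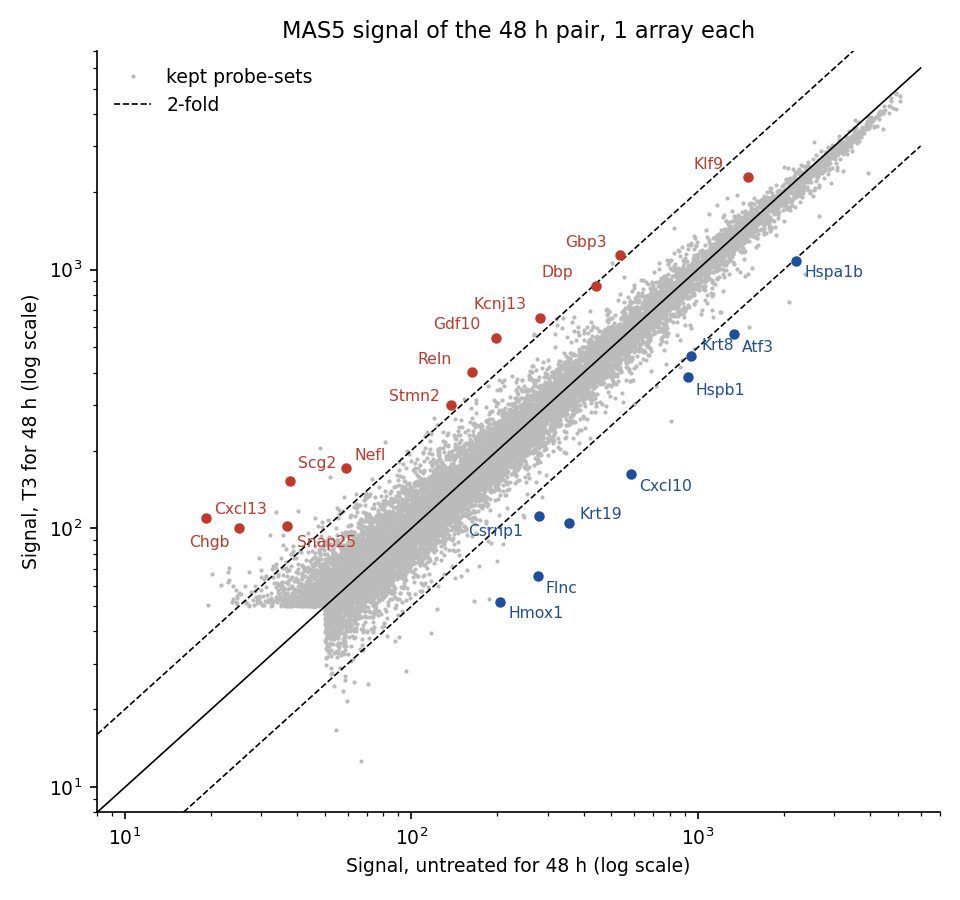
Signal of each of the 15494 kept probe-sets in the T3 culture (vertical axis) and in the untreated culture (horizontal axis) at 48 h, both on log scales, 1 array each. The solid line marks equal signals and the dashed lines 2-fold differences; red points are named genes that were higher with T3 (Nefl 171 and 59.3) and blue points named genes that were lower (Flnc 65.6 and 276).

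Many genes of neurons were higher with T3. Of 24 kept genes of the neuronal cytoskeleton and its RNA-binding proteins (27 listed), 19 were higher with T3 and 5 lower, with a median log2 fold change of 0.44, against 44.5% higher and a median of -0.03 over all 9283 kept genes. Of the 24, 6 were over 1.6-fold higher (1.86% of all kept genes) and 4 over 2-fold higher (0.539%), while none was over 1.6-fold lower. With 32 added to every signal, which damps the ratios of dim genes, Nefl alone of the 4 stayed past 2-fold. Nefl, the light chain of neurofilaments that fill the axon, had a signal of 171 with T3 and 59.3 untreated (log2 fold change 1.53), and its second kept probe-set gave 0.71. Stmn2, a stathmin of growing axons that binds tubulin, had 299 and 138 (1.12, second probe-set 0.86). Elavl4, an RNA-binding protein of young neurons, had 72.7 and 33.6 (1.11, second probe-set 1.46). Ina, which encodes the neurofilament partner alpha-internexin, had 102 and 48.9 (1.06). Elavl4 and Ina reached 50 with T3 only, so that the filter kept them through the array where they were high. The median of the list over genes of 50 or more on both arrays was 0.42. Below 2-fold, the axonal protein tau (Mapt) had 121 with T3 and 63.0 untreated (0.94), and the adhesion molecule Cntn1 had 595 and 336, with both of its probe-sets between 0.82 and 0.83. Map1b, a microtubule-associated protein of growing axons, ran the other way with 212 and 271 (-0.36).

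For most of these genes the untreated 48 h array had the lowest signal of the series. In 19 of the 24 kept cytoskeleton genes (79.2%) the untreated 48 h signal was the lowest of all 8 arrays, against 12% of all kept genes. This count is not separate from the direction at 48 h. A gene with its 2 lowest signals at 48 h and the higher one with T3 has its lowest signal in the untreated culture. For Stmn2 the other 6 arrays had signals of 336 to 2329, so that the T3 culture at 48 h, with 299, was also below every earlier array. Nefl was different, since its 171 with T3 lay inside the range of the other arrays (160.5 to 841). At the other time points 2 of the 24 were higher with T3 at 6 h (median -0.14), 15 at 16 h (median 0.02) and 3 at 24 h (median -0.72). Of all 9283 kept genes, 4735 were higher at 6 h, 4389 at 16 h and 5142 at 24 h. These shares, with 44.5% at 48 h, also stand beside the counts of the lists below.

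Genes of secretion and of the synapse followed a similar order, with fewer members above background. Scg2 (secretogranin II), a granin of dense core vesicles, had a signal of 153 with T3 and 37.6 untreated (log2 fold change 2.03), and its relative Chgb (chromogranin B) had 100.1 and 25.0 (2.0). With 32 added the values were 1.41 and 1.21. Both reached 50 in the T3 culture only, and the untreated signal was the lowest of the 8 arrays, the other 6 arrays having 101 to 798 for Scg2 and 108 to 824 for Chgb. Of 8 kept granin and dense core vesicle genes, 5 were higher and 3 lower, with a median of 0.36, and only these 2 passed 2-fold. Snap25, a membrane protein of the vesicle fusion machinery, had 102 with T3 and 36.7 untreated (1.48), against 146 to 726 on the other arrays. Amph, an endocytosis adaptor of nerve terminals, had 110.2 and 55.6 (0.99), and the vesicle protein Sv2a had 77.0 and 39.7 (0.96). Snap25 and Sv2a reached 50 with T3 only. Of 30 listed genes of vesicle release 12 were kept, of which 8 were higher and 4 lower (median 0.31, or 0.20 over genes of 50 or more on both arrays). At 24 h 1 of the 12 was higher (median -0.90). Most genes of mature synapses stayed below the limit, since 3 of 29 genes of the postsynaptic density and glutamate receptors and 1 of 23 voltage-gated channel genes reached 50.

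Several transcription factors of granule cells and the secreted protein reelin were also higher with T3, while the secreted Cbln1 was lower. Reln, which encodes reelin, the extracellular guide of neuronal migration that granule cells secrete, had a signal of 401 with T3 and 163 untreated (log2 fold change 1.30), against 899 to 2724 on the other 6 arrays. In the other 3 pairs it was lower with T3 (-0.19, -0.05 and -0.97 at 6, 16 and 24 h). Pax6, a homeobox transcription factor that granule cell precursors express, had 136 and 64.2 (1.09), against 310 to 853 elsewhere. Both genes thus had their 2 lowest signals at 48 h, and the T3 signal was the higher one. Rbfox3, the neuronal splicing factor known as NeuN, had 265 with T3 and 142 untreated (0.90). Neurod1, a differentiation factor of granule neurons, had 423 and 266 (0.67), and Insm1, a zinc finger protein of neuronal progenitors, had 261 and 149 (0.81, second probe-set 1.07). Cbln1, a synaptic organizer released by granule neurons, was lower with T3 (44.9 and 65.7, -0.55), and it was lower still at 24 h, with 174 and 1477 (-3.08). Of 8 kept genes of differentiated granule neurons 7 were higher (median 0.54), and of 12 kept precursor genes 9 were higher (median 0.22). Beside Pax6, the precursor marker Atoh1 had 26.9 with T3 and 27.6 untreated, Barhl1 57.3 and 42.6, and Zic1 1890.5 and 1574. Of 23 kept cell division genes 21 were higher (44.5% of all kept genes), with a median of 0.20, and none passed 1.6-fold. At 6, 16 and 24 h, 11, 13 and 0 of them were higher, with medians of -0.01, 0.09 and -0.77.

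**Figure D2:**
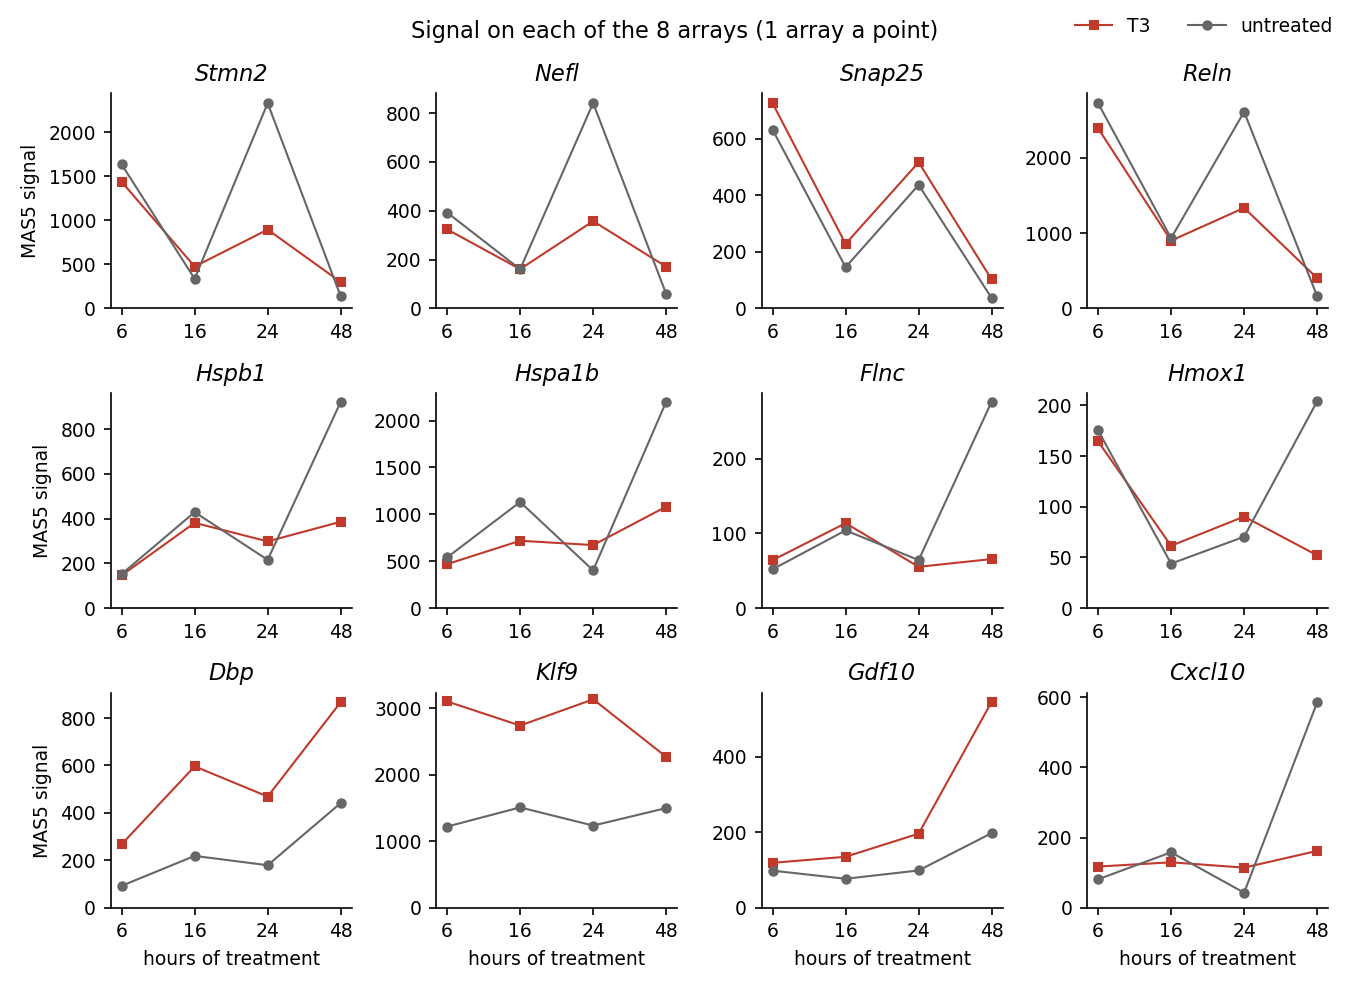
Signal of 12 genes on each of the 8 arrays, with the hours of treatment on the horizontal axis and the linear signal on the vertical axis (red squares T3, grey circles untreated, 1 array a point, so no error bars). Stmn2, Nefl, Snap25 and Reln reached their lowest signal in the untreated 48 h culture, while Hspb1, Hspa1b, Flnc, Hmox1 and Cxcl10 reached their highest there.

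Genes known to respond to T3 were higher at 48 h, and the log2 fold changes of Dbp and Klf9 were smaller there than in the other pairs. Of 25 listed T3 response genes 10 were kept, and all 10 were higher with T3 (44.5% of all kept genes), with a median log2 fold change of 0.59. The mean over probe-sets was -0.21 for 1 of them, Hopx. At 6, 16 and 24 h, 6, 9 and 4 of the 10 were higher with T3 (4735, 4389 and 5142 of all 9283 kept genes). The medians of the 10 were 0.19, 0.39 and -0.87. Reln alone passed 2-fold at 48 h, and neurons express several of these genes. Dbp, a PAR bZIP transcription factor of the circadian output, had a signal of 867 with T3 and 441.5 untreated at 48 h (0.97, second probe-set 0.99), against 1.53, 1.45 and 1.39 at 6, 16 and 24 h. The untreated signal of Dbp at 48 h exceeded its untreated signals at 6, 16 and 24 h (92.7, 219 and 179.5). Klf9, a zinc finger transcription factor induced by thyroid hormone in many tissues, had 2268 and 1498 at 48 h (0.60), against 1.35, 0.86 and 1.34 before, and its 4 kept probe-sets ranged from 0.45 to 1.13. Its T3 signal at 48 h was the lowest of the 4 T3 cultures. In the limma test over the 6, 16 and 24 h pairs, which the 48 h arrays did not enter, no probe-set passed (0 of 15494, 0% called, 863 with an unadjusted p under 0.05). Dbp and a dimmer probe-set of Klf9 (1.13 at 48 h) came nearest, with an adjusted p of 0.163 each, and the Klf9 probe-set given above had 0.186. The classical target Hr (hairless) had 16.5 with T3 and 7.1 untreated and stayed below the limit of 50.

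Other genes that the study followed split by direction. Gbp3, an interferon-inducible guanylate-binding protein, had a signal of 1138 with T3 and 534 untreated (1.09), and was higher with T3 in all 4 pairs (0.21, 0.81 and 1.56 at 6, 16 and 24 h). Spata13, an exchange factor for small GTPases of the cytoskeleton, had 129.6 and 97.5 (0.41), the smallest of its 4 fold changes (1.06, 0.75 and 1.15 before). Pfkfb3, a regulator of glycolysis, had 105 and 66.2 (0.67), and the transcription factor Zbtb20 had 177 and 138 (0.36, with 7 probe-sets from -0.13 to 0.52). Cdh1 (E-cadherin), the adhesion molecule of epithelia, was lower with T3 (195 and 346, -0.83), as it was at 6 and 16 h (-0.67 and -0.68) but not at 24 h (0.10). Vnn1, a pantetheinase, had 281 and 439 (-0.64), and Anxa8, an annexin, had 38.2 and 90.4 (-1.24) and reached 50 in the untreated culture only. The transglutaminase Tgm2 (-0.28), the plexin Plxna2 (-0.16) and the immunoglobulin protein Igsf3 (0.05) differed little. Of the 13 kept genes, 8 were higher and 5 lower.

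**Figure D3:**
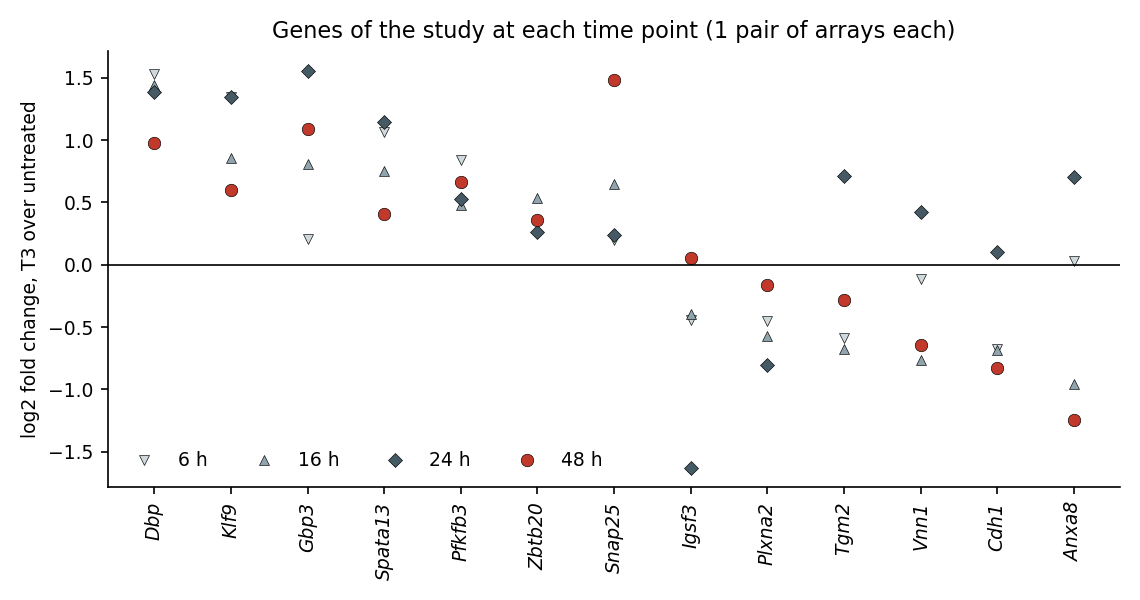
Log2 fold change of T3 over untreated for 13 genes that the study followed, at 6, 16, 24 and 48 h (1 pair of arrays a point, no error bars). At 48 h (red circles) Dbp, Klf9 and Spata13 lie below their values at the other time points, and Snap25 lies above its own.

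Outside the neuronal group, the genes that were higher with T3 included secreted, channel and transporter genes. Gdf10, a TGF-beta family ligand of Bergmann glia, had a signal of 545 with T3 and 198 untreated (log2 fold change 1.46), both above the 76.9 to 196 of the other arrays. It was higher with T3 at 6, 16 and 24 h too (0.28, 0.81 and 0.99). Kcnj13, an inwardly rectifying potassium channel abundant in choroid plexus, had 651 and 281 (1.21) and was higher in every pair (1.01, 0.95 and 2.23). The organic cation transporter Slc47a1 had 158 and 52.1 (1.6). The neuronal activity gene Fos, by contrast, was higher at 48 h (566 and 267, 1.08) and at 24 h (1.27) but not at 6 or 16 h (-0.56 and -0.07), and 10 of the 13 kept immediate early genes were lower with T3 at 48 h. Jun, the partner of Fos in the AP-1 factor, had 405 and 689 (-0.77). Gadd45b, a stress and activity gene, had 299.5 and 134.5 (1.15, second probe-set 0.73). Kif22, a kinesin of dividing cells, had 1058 and 502 (1.07), but its other probe-set gave 0.12, so that the 2 probe-sets disagree. The Wnt receptor Fzd4 (291 and 162) and the secreted BMP and Wnt antagonist Sostdc1 (652 and 339) were over 1.6-fold higher by both of their probe-sets.

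Some vascular genes, pericyte genes among them, were higher with T3, while several others differed little. Rgs5, a signalling regulator of pericytes, had a signal of 251 with T3 and 123 untreated (log2 fold change 1.03, second probe-set 0.81), and Abcc9, a subunit of their potassium channels, had 86.1 and 35.8 (1.27). Kcnj8, the channel partner of Abcc9, had 70.1 and 36.6 (0.94). Abcc9 and Kcnj8 reached 50 with T3 only. Other pericyte and smooth muscle genes hardly differed: Pdgfrb had 592 and 556 (0.09) and Acta2 had 1266 and 1208 (0.07). Endothelial Cldn5 (0.06) and Cdh5 (-0.13) were also close to equal. Of 11 kept endothelial and mural genes 10 were higher, and 4 were over 1.6-fold higher (1.86% of all kept genes). Their median was 0.34, which becomes 0.08 over genes of 50 or more on both arrays. Of 14 microglial genes 12 were higher (median 0.30), led by C1qa (185 and 119, 0.64) and Cx3cr1 (166 and 111, 0.58), while the lysosomal protein Cd68 was lower (978 and 1406, -0.52). At 6, 16 and 24 h, 13, 14 and 7 of the 14 were higher with T3, with medians of 0.32, 0.33 and 0.03. Fibroblast and matrix genes had a median of -0.04, with 7 higher and 12 lower of 19.

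Heat shock proteins were lower with T3 without exception among those measured. All 14 kept genes (15 listed) were lower, with a median log2 fold change of -0.42, where 55.3% of all kept genes were lower and the median was -0.03. Of the 14, 5 were over 1.6-fold lower, against 1.3% of all genes, and 2 were over 2-fold lower, against 0.323%. These proteins are chaperones that bind unfolded proteins, and their genes are switched on together by the heat shock factor, which binds repeats of the letters GAA and TTC. The promoters of 2 of the genes with the largest differences are shown here because they hold such repeats. They are the 250 bases before the transcription start, from RefSeq on GRCm38.p6, at chr5:135887669-135887918, plus strand for Hspb1 and chr17:34959239-34959488, minus strand for Hspa1b, with each match to GAANNTTC in capitals (the motif reads the same on both strands).
Hspb1: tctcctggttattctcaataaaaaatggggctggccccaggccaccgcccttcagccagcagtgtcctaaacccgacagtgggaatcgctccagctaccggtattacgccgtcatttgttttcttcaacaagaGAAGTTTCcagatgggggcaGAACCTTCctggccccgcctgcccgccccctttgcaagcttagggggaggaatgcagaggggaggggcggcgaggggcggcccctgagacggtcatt
Hspa1b: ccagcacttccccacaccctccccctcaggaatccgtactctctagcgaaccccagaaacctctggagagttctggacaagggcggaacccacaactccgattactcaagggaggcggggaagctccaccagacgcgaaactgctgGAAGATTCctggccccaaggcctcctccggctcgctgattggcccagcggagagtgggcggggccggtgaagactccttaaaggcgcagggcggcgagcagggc
The matches begin at positions -117 and -97 in Hspb1 and at -104 in Hspa1b. In windows of 250 bases before to 50 after the start, the motif, which was chosen after the fold changes had been seen, is present in 9 of the 11 heat shock genes with a promoter sequence (81.8%) and in 2442 of 27025 genes (9.04%). In the list of unfolded protein stress genes it is present in 1 of 16 (6.25%). The 9 heat shock genes include Hspa1a and Hspa1b, whose promoters share 247 of 250 bases. A match of letters is a description and not a bound site.

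Among the single genes, Hspb1, a small heat shock protein, had a signal of 386 with T3 and 922 untreated (log2 fold change -1.26, second probe-set -1.63). Hspa1b, an inducible Hsp70, had 1082 and 2202 (-1.02, with 3 probe-sets between -1.47 and -1.02). Its near-identical neighbour Hspa1a had 495 and 973 (-0.98). The promoters of these 2 genes share 247 of 250 bases, and probes may not separate their transcripts. They are better read as 1 result, also in the counts of the list. Dnajb1, the Hsp40 partner of Hsp70, had 656 and 1131.5 (-0.79, second probe-set -0.88). Cryab, a small chaperone abundant in glia and muscle, had 2365 and 3944 (-0.74, second probe-set -1.33), and Bag3, a co-chaperone that hands clients to autophagy, had 264 and 388 (-0.56). The constitutive chaperone Hspa8 had the bright and similar signals of 3598 and 4115 (-0.19). For 9 of the 14 genes (64.3%, against 18.6% of all kept genes) the untreated 48 h signal was the highest of all 8 arrays. Hspb1, for example, had 147 to 429 on the other 6. The count of 9 is not separate from the direction at 48 h. Only a gene that was lower with T3 can have its highest signal in the untreated 48 h culture, and all 14 were lower. The medians of the list were -0.01, -0.04 and 0.41 at 6, 16 and 24 h, and 12 of the 14 genes were higher with T3 at 24 h.

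Genes of the unfolded protein and amino acid stress responses, which restore protein folding in the endoplasmic reticulum and amino acid supply, were lower with T3 in the same way. All 17 were kept and all 17 were lower at 48 h (55.3% of all kept genes), with a median of -0.34. At 24 h all 17 were higher with T3 (5142 of all 9283 kept genes), with a median of 0.93. The medians at 6 and 16 h were -0.08 and 0.04. One of them passed 2-fold at 48 h: Atf3, a stress-induced transcription factor, had a signal of 566 with T3 and 1334 untreated (-1.24). At 24 h the order was the opposite, with 1264 in the T3 culture and 353 in the untreated one (1.84). Herpud1, which serves the degradation of misfolded proteins, had 594 and 949 (-0.68), Sesn2, a sensor of amino acid stress, had 416.5 and 600.5 (-0.53), and the pseudokinase Trib3 had 481 and 656.5 (-0.45). Hspa5, the main chaperone of the endoplasmic reticulum, had 3503 and 4441 (-0.34), and Ddit3, the stress factor CHOP, had 1816 and 2045 (-0.17). The difference was thus small in most members and shared in direction. Genes of one response move together within a culture, so these are 17 readings of the same 2 cultures.

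Among antioxidant genes, Hmox1 was far lower with T3 and most others differed little. Hmox1, the heme-degrading enzyme heme oxygenase, had a signal of 52.1 with T3 and 204 untreated (log2 fold change -1.97), against 43.9 to 175 on the other arrays. Its log2 fold changes at 6, 16 and 24 h were -0.09, 0.49 and 0.36. Mt1, a metallothionein, had 1615.5 and 2650 (-0.71). Other antioxidant genes such as Nqo1 (113 and 108, 0.07), Gclm (0.05) and Txnrd1 (-0.13) differed little. The list of 20 had 8 higher and 12 lower, with a median of -0.07 that becomes 0.02 after quantile normalization.

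The largest difference in the lower direction belonged to Flnc, which encodes filamin C, an actin cross-linker best known from muscle. It had a signal of 65.6 with T3 and 276 untreated (log2 fold change -2.07, second probe-set -1.77), and the other 6 arrays lay between 51.9 and 114. The T3 culture thus lay within the range of the other time points and the untreated 48 h culture lay above it. Of the 22 kept actin and SRF target genes, Flnc included, 6 were higher and 16 lower (median -0.15), and the matrix protein Thbs1 was over 1.6-fold higher (80.4 and 48.1, 0.74). In 12 of the 22 the untreated 48 h signal was the highest of the 8 arrays, against 18.6% of all kept genes. As for the heat shock genes, this count is not separate from the direction at 48 h, since 16 of the 22 were lower. Krt19 and Krt8, keratins of simple epithelia, had 105 and 357 (-1.77) and 462 and 951.5 (-1.04, with 3 probe-sets from -1.04 to -1.01). Pkp2, a desmosomal plakophilin, had 132 and 287 (-1.12, second probe-set -0.97), and Tspan8, a tetraspanin of epithelia, had 87.0 and 208 (-1.26). Klf4, an epithelial Krüppel-like factor, had 308 and 549 (-0.83, second probe-set -1.33), and the adhesion receptor Pvr was lower by 4 probe-sets, from -0.91 to -0.76. Each of these 6 genes, which were grouped after their values had been seen, had its highest signal of the 8 arrays in the untreated 48 h culture, whereas Cdh1 had its highest in the untreated culture at 16 h (449). Csrnp1, a nuclear protein induced by AXIN, had 112 and 279 (-1.32).

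Interferon genes did not shift as a group at 48 h, but single members differed in opposite directions. Of 28 kept genes 14 were higher and 14 lower, with a median of 0.00. At 6, 16 and 24 h, 26, 13 and 27 of the 28 were higher with T3 (4735, 4389 and 5142 of all 9283 kept genes). The medians of the 28 were 0.23, -0.02 and 0.67. All 28 had their highest signal of the 8 arrays at 48 h, 14 of them with T3 and 14 untreated. Cxcl10, a chemokine that attracts T cells, differed most, with 162 with T3 and 585 untreated (-1.85), against 43.1 to 158 on the other arrays. Its log2 fold changes at 6, 16 and 24 h were 0.53, -0.29 and 1.41. Gbp3 was over 2-fold higher, as given above. Outside the list, the antiviral regulator Oasl1 had 71.4 with T3 and 172 untreated (-1.27). Bright members such as Ifit3 (1333 and 1148, 0.22), Ifit1 (1182 and 1416, -0.26) and Rsad2 (1354 and 1870, -0.47) stayed within 1.6-fold. The promoters of Cxcl10 and Gbp3, the 2 members of the list past 2-fold, each hold GAAANNGAA, the core of the interferon-stimulated response element, searched on both strands. They are shown as 250 bases before the start from RefSeq on GRCm38.p6, at chr5:92348890-92349139, minus strand for Cxcl10 and chr3:142559794-142560043, plus strand for Gbp3, with matches in capitals.
Cxcl10: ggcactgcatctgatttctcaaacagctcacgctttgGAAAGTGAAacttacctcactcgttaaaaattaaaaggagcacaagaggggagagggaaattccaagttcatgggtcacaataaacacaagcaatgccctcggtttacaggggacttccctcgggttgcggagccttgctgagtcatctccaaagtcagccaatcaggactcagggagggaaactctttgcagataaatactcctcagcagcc
Gbp3: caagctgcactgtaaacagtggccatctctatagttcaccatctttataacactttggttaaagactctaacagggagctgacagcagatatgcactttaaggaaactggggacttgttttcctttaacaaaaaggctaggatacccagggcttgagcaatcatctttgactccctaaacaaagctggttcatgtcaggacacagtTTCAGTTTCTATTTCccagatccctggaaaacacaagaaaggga
The match begins at position -213 in Cxcl10, and 2 overlapping matches begin at -44 and -38 in Gbp3. In the 300-base windows the motif is present in 13 of 25 interferon genes with a promoter sequence (52%) and in 9.76% of all genes. The DR4 thyroid hormone response element, a direct repeat bound by T3 receptors, was searched in the same windows. It is present in Gbp3, not marked above, as 1 of 9 genes of the study with a promoter sequence (11.1%). None of the 7 T3 response genes with a promoter sequence (0%) and 0.91% of all genes hold it. In a cerebellar cell line the paper found T3 receptor bound near Dbp, Klf9, Hr and Gbp3, at sites that it places outside these windows. The search did not cover those sites, and a match of letters is not a bound site. Among chemokines, Cxcl13, which attracts B cells, had 110.0 with T3 and 19.2 untreated (2.52, or 1.47 with 32 added, reaching 50 with T3 only), and 7.4 to 14.7 on the other arrays. The 22 kept chemokine, cytokine and NF-kB genes had a median of 0.00.

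**Figure D4:**
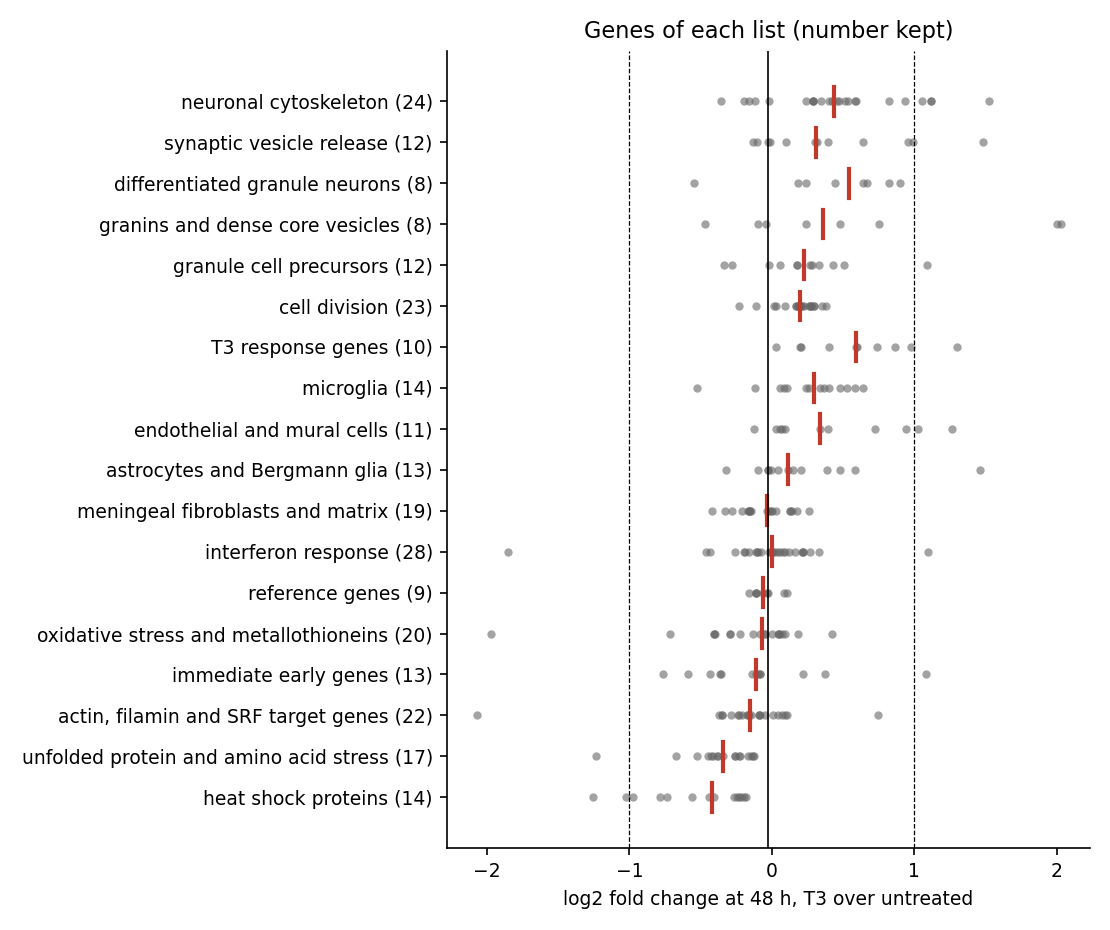
Log2 fold change at 48 h (T3 over untreated, 1 array each) of the kept genes of 18 lists, with the number kept in brackets. Grey points are genes, red bars list medians, the solid line the median of all kept genes (-0.03) and the dashed lines 2-fold. Every heat shock and unfolded protein stress gene lies below 0, and most genes of the neuronal cytoskeleton lie above it.

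The genes that act on the hormone itself were nearly equal on the 2 arrays. Thra, which encodes the main receptor of these cells, had a signal of 609 with T3 and 574 untreated (0.08), and the deiodinase Dio2, which makes T3 from its precursor, had 236.5 and 299 (-0.34). The hormone-binding protein Crym (427 and 428) and the amino acid and thyroid hormone transporter Slc7a5 (720.3 and 738) did not differ by more than 0.04. Of 12 kept genes of this kind 5 were higher and 7 lower, and none passed 1.6-fold. The 9 kept reference genes, which differ little in most experiments, ranged from -0.16 (Actb) to 0.10 (Tbp).

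The remaining genes with the largest differences belonged to no single group. Tlcd3b, an enzyme of ceramide synthesis, had a signal of 132 with T3 and 58.2 untreated (log2 fold change 1.18), and Capsl, which encodes a calcium-binding protein, had 108 and 51.3 (1.07). The axonal scaffold Ank3 (119.5 and 72.8) and the neuronal Notch ligand Dner (218 and 129.5) were over 1.6-fold higher by both of their probe-sets, as were the carboxylate transporter Slc13a3 (182 and 111) and the transamidase subunit Gpaa1 (76.1 and 47.2). In the other direction, Gm13889 had 53.3 with T3 and 186.5 untreated (-1.81), the poly(C)-binding protein Pcbp3 had 112 and 246 (-1.13, second probe-set -0.81), Fam167a had 111 and 248 (-1.16) and the zinc finger gene Zcchc12 had 87.7 and 189.6 (-1.11). Tes, a protein of focal adhesions, had 296 and 478 (-0.69, second probe-set -0.76). Genes that reached 50 on 1 array only are the least certain, because the dimmer signal lies close to background. With T3 only they included the ribosomal protein gene Rpl39 (70.2 and 23.2), the basement membrane collagen Col15a1 (67.8 and 23.0) and A930009L07Rik (116.5 and 40.2), beside Cxcl13, Scg2 and Chgb. In the untreated culture only they included the cytokine subunit Il23a (16.7 with T3 and 54.7 untreated), the glutathione cycle enzyme Oplah (25.1 and 70.8), the neuropeptide Grp (21.6 and 59.7), the integrin Itgb7 (25.6 and 63.0) and the zinc finger gene Jazf1 (36.9 and 87.7), beside Anxa8.

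The fold changes at 48 h were set beside those of the other time points for the genes with the largest differences. Of the 15 genes with the largest ratios in favour of T3 and 50 or more on both 48 h arrays, 7 were higher with T3 at 6 h, 11 at 16 h and 8 at 24 h, where 4735, 4389 and 5142 of all 9283 kept genes were higher. Kcnj13, Gdf10, Gbp3, Slc47a1 and Aplnr, the apelin receptor (199.5 and 96.7 at 48 h, 1.04), were higher in all 4 pairs, although Slc47a1 was below 50 on 5 of the 6 other arrays. Of the 15 with the largest ratios in the other direction, 6 were lower at 6 h, 11 at 16 h and 3 at 24 h. The 24 h pair thus stood on the opposite side for 12 of these 15. Only Ttc9, which had 65.5 with T3 and 149 untreated at 48 h (-1.19), was lower in all 4 pairs among them.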

How the data were processed

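RNA of 8 cerebellar cultures was amplified once linearly and hybridized to Affymetrix Mouse 430 2.0 arrays. The authors computed the deposited values with GCOS and MAS5, according to the submitters' processing notes, as 1 linear signal intensity per probe-set, scaled to the same trimmed mean on each array. The mean without the highest and lowest 2% was between 99.968 and 99.971, and the number of arrays limits the precision.

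From 45101 probe-sets 64 controls were left out. Of the others, 34945 carry 1 gene symbol, 932 several and 9160 none, and unnamed ones stay in counts and tests. Signals below 1 were set to 1 before log2. A gene is read by its brightest single-symbol probe-set over the 8 arrays. Both limma tests took arrays of a time point as a pair, with a variance trend, Benjamini-Hochberg adjustment at 0.05 and prior degrees of freedom of 4.27, and were tested on simulated data (R 4.3.3, limma 3.58.1, Python 3.11.15, pandas 2.3.3).

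Genes are named as follows: the 15 largest fold changes each way among genes with 50 or more on both 48 h arrays, the 6 largest each way among genes reaching 50 on 1, genes with all of 2 or more probe-sets past 1.6-fold, the genes of the study, members of the gene lists, and genes passing a limma test. Members and lists were chosen with earlier results of these data known. Pax2 is not analysed here, since no probe-set carries its symbol alone.

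Alternatives were 32 added to every signal, quantile normalization, median centring, other filters and folds, the mean of a gene's probe-sets, no variance trend, no pairing and leaving out each pair. The motif of the heat shock element was added after the data were seen.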

Additional observations from a re-analysis of the deposited data

How the results depend on the processing

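The counts at 48 h depended on the treatment of dim probe-sets. The 82 probe-sets over 2-fold higher with T3 became 14 with 32 added to every signal, 27 with a signal of 50 or more on both arrays, 38 with 100 or more on at least 1 array and 4396 with no filter. At 1.6-fold there were 333, at 3-fold 8, and by the brightest probe-set of each gene 50. The 46 that were over 2-fold lower became 19, 30 and 3140 with 32 added, both arrays at 50 and no filter, and 188, 10 and 30 at 1.6-fold, at 3-fold and by gene. Of 48 named genes past 2-fold, 21 remained so with 32 added, which understates changes of dim genes, and 47 after quantile normalization (without Hspa1b). The 27 that did not with 32 added include Stmn2, Elavl4, Ina, Snap25, Pax6, Fos, Rgs5, Abcc9, Krt8, Pkp2 and Anxa8. The sign changed in 0 of 71 named genes under either. With the mean of a gene's probe-sets 42 remained, and Gadd45b, Stmn2, Kif22, Rgs5, Ttc9 and Pcbp3 did not. That mean turned Igsf3 to -0.03 and, among the T3 response genes, Hopx to -0.21. All 14 heat shock genes and all 17 unfolded protein stress genes stayed lower with T3 with 32 added, after quantile normalization and with the mean of the probe-sets. The median of the heat shock genes was -0.40 after quantile normalization and -0.52 with the mean of the probe-sets. For the unfolded protein stress genes these medians were -0.24 and -0.26, against -0.34 in the main setting. The median of the endothelial and mural list was 0.0795 with both arrays at 50 (0.34 otherwise), and the only kept gene of the GABAergic list was at 0.30 with 32 added (0.51 otherwise). The limma test of 48 h against the other pairs called 0 probe-sets in every alternative. The test over 6, 16 and 24 h called 0 to 4 when 1 pair was left out, with 4 without the 6 h pair, 2 without the 16 h pair and 0 without the 24 h pair. Without the replicate block, that is without the pairing by time point, both tests called 0. A difference of 1 array from 1 array cannot separate T3 from the variation between cultures, amplifications or hybridizations.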
